A study of Rattus norvegicus with 30 samples.

Results

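The hemisphere effect of stroke, the log2 signal of microglia from the ipsilateral hemisphere minus that from the contralateral one, was compared between day 14 and day 3 in 12-month-old rats. The comparison takes the 12 arrays whose titles name 12 months, a day and a hemisphere, of 30 arrays in the series: 3 of the contralateral and 3 of the ipsilateral hemisphere on each day. The value reported for a gene is its hemisphere effect on day 14 minus that on day 3, here called its change. A shift that both hemispheres share cancels in it, a positive change means that the effect was larger or less negative on day 14, and a negative one the reverse. All rats were male, and all but the sham rats had undergone 75 min of occlusion of the middle cerebral artery with a monofilament under 1.2% isoflurane. The labels call the strain Wistar Kyoto in one field and spontaneously hypertensive in others, and this was not settled. Sample codes tie each ipsilateral array to a contralateral array of the same animal, which gives 3 animals a day and 6 in all. The day-3 and the day-14 rats are different animals. For reference there were 3 arrays of 12-month-old sham rats, whose labels name no hemisphere, and the same 12-array design in 3-month-old rats. The sources used here do not give how microglia were isolated or whether animals were pooled.

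After an ischemic stroke, resident microglia around the lesion divide, take up debris and dying cells, and leave their resting expression state, while monocytes, neutrophils and macrophages of the meninges and vessels can enter or gather in the damaged tissue. The early days are dominated by cell division and inflammatory genes. In later weeks phagocytes carry much myelin and cell lipid, and genes of lysosomes, lipid export and growth factors are then known to be prominent. A change of the hemisphere effect can come from fewer cells of a type or from less RNA per cell, and in RNA from many cells these cannot be told apart.

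The arrays were alike in technical terms, and the RNA carried the signature of microglia. Within a group, arrays of 12-month-old rats correlated at 0.992 to 0.996 over all genes tested. The 11 measured genes that mark microglia and brain macrophages had a mean log2 signal of 10.29 to 10.77 in each array of the 5 groups of 12-month-old rats, and none of the 11 was called in the change (median -0.02). Mean signals over the lists for astrocytes, neurons, oligodendrocytes and their precursors, pericytes and ependyma lay between 4.53 and 5.62, near the median signal of an array (5.06 to 5.14). The list for endothelial cells lay higher, at 6.05 to 6.38. The first 3 principal components of the 15 arrays of 12-month-old rats held 56.8%, 17.6% and 4.55% of the variance, and the contralateral day-14 array of animal 1 stood apart on the third (-17.8, against 0.97 and 1.22 for the other 2 of its group). A number that leads the sample codes is shared by all day-3 samples, by day-14 animals 2 and 3, and by day-14 animal 1 alone. Its meaning is not given, it differs between the days for every animal, and the day and this number cannot be told apart; both hemispheres of an animal share it.

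From day 3 to day 14 the hemisphere effect was called lower for more genes than it was called higher. Of 11675 genes tested, 204 were called higher and 419 lower in the change (limma, Benjamini-Hochberg adjusted p under 0.05), which is 1.75% and 3.59% of the genes. At least 2-fold changes (1 on the log2 scale) were called higher for 35 and lower for 111 genes. The 419 lower genes had a median hemisphere effect of 0.79 on day 3 and 0.02 on day 14, so the typical one had lost its ipsilateral excess. The 204 higher genes had a median of -0.11 on day 3 and 0.56 on day 14. The median change over all genes was -0.01. Quantile normalization over the 30 arrays gave 253 higher and 327 lower, which moved the lower share from 67.3% to 56.4%. Leaving out arrays lowered the lower count to 268 without contralateral day-3 replicate 2, to 275 without ipsilateral day-3 replicate 3 and to 262 without ipsilateral day-14 replicate 2. Without both arrays of an animal it was 275 and 260 (day-3 animals 2 and 3) and 218 and 238 (day-14 animals 2 and 3), and the higher count was 123, 128 and 123 (day-3 animals 1, 2 and 3) and 103 (day-14 animal 3).

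The ipsilateral hemisphere carried most of these changes. The day effect (day 14 minus day 3) was larger in size on the ipsilateral than on the contralateral side for 414 of the 419 lower and 194 of the 204 higher genes. That share was not taken over all genes tested. On the ipsilateral side 1642 genes (14.1%) were called lower on day 14, and on the contralateral side 108 (0.925%). The median day effect of the lower genes was -0.87 ipsilaterally and -0.13 contralaterally, and that of the higher genes was 0.58 and -0.07. The 3 animal-wise hemisphere differences on day 14 lay wholly below the 3 on day 3 for 414 of the 419 lower genes, and wholly above for 203 of the 204 higher genes. Over all genes tested, 13.9% lay wholly below and 10.1% wholly above. The genes were called on these same arrays, so their separation by animal is no independent support for the calls.

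The called genes followed a few paths. On day 3, 2178 genes (18.7%) were called higher ipsilaterally, and 1271 (10.9%) on day 14, while 1168 (10%) and 694 (5.94%) were called lower. Of the 419 lower genes, 303 were called higher ipsilaterally on day 3 and not called on day 14, and 61 stayed called higher on both days. A further 33 were called lower ipsilaterally on day 14 alone, and 13 turned from higher to lower. Of the 204 higher genes, 96 were called higher ipsilaterally on day 14 alone, 49 were called lower on day 3 alone, 37 were higher on both days and 12 turned from lower to higher.

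**Figure D1:**
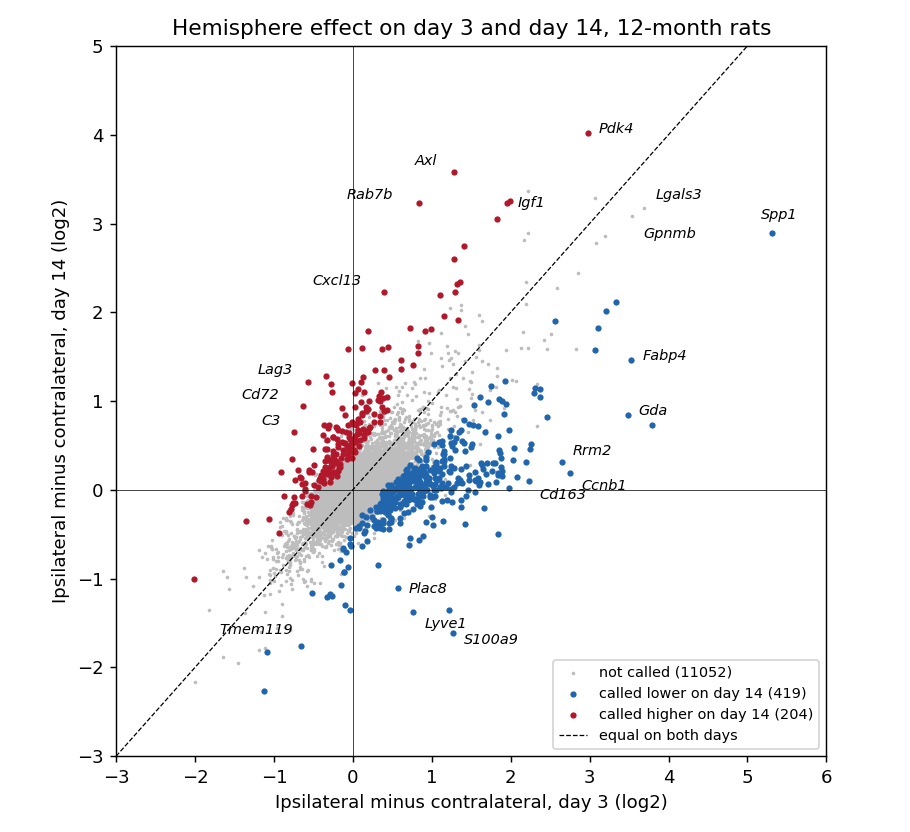
Each point is 1 of 11675 genes, with its hemisphere effect (ipsilateral minus contralateral, log2, n = 3 arrays a group) on day 3 on the horizontal axis and on day 14 on the vertical axis. The 419 genes called lower lie under the dashed line of equal effects, most of them to the right near 0 on the vertical axis, and the 204 called higher lie above it, with Pdk4, Axl, Rab7b and Igf1 at the top.

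Genes of mitosis made up the most uniform group. Of 38 listed genes of mitosis, the spindle and the kinetochore, 32 passed the filter on low signal, 30 were called lower in the change and 0 higher. The median change was -1.35, and the median hemisphere effect went from 1.61 on day 3 to 0.16 on day 14. The 2 uncalled members were Aurka (-0.12), a centrosomal kinase, and Ttk (-0.38), a checkpoint kinase, and neither had an ipsilateral excess on day 3. The list's mean signal was 6.81 to 6.97 in the ipsilateral arrays of day 3, 5.11 to 5.51 in the contralateral ones, 4.45 to 4.92 and 4.40 to 4.52 on day 14 (ipsilateral and contralateral), and 4.42 to 4.48 in sham. So the contralateral hemisphere also stood above sham on day 3, and all 3 of its arrays lay above every day-14 contralateral array. In the contralateral hemisphere alone, 29 of the 32 were called lower from day 3 to day 14 (median -0.86), and in the ipsilateral one 31 (median -2.35). Since 13 of the 32 were dim in at least 1 group (at or below the 30th percentile of the array on all 3 arrays), their change there is limited by the floor; with values raised to that percentile the median was -1.44.

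Ccnb1, the B-type cyclin that drives entry into mitosis, shows the pattern array by array. It read 8.16, 7.89 and 8.11 in the ipsilateral hemisphere on day 3 and 5.60, 4.77 and 5.52 in the contralateral one (probe set 10821016). On day 14 it read 5.16, 4.41 and 4.15 ipsilaterally and 4.66, 4.35 and 4.15 contralaterally, and in sham 4.37, 4.14 and 4.36. The ipsilateral day-3 arrays stood clear of all others and the day-14 hemispheres overlapped, with the ipsilateral day-14 array of animal 1 above the lowest contralateral day-3 array. The change was -2.57 ± 0.28 (± standard error of the fit, limma adjusted p = 3.71e-07). Bub1, a kinase of the spindle checkpoint, changed by -1.89 ± 0.20 (2.9e-07), and read 6.98, 7.14 and 7.17 on the ipsilateral side on day 3. On day 14 it read 4.46, 4.08 and 3.69 there and 3.95, 3.66 and 3.69 on the contralateral side, the latter all at or below the 30th percentile. Ect2, an exchange factor of cytokinesis, changed by -1.73 ± 0.13 (limma adjusted p = 1.08e-09) and was dim in both hemispheres on day 14. Nuf2 and Kif4a, a kinetochore protein and a chromosome-bound kinesin, changed by -1.96 ± 0.25 and -1.93 ± 0.23; both were dim in both hemispheres on day 14, so that these changes are in effect their day-3 hemisphere effects of 1.98 and 2.08.

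Genes of DNA replication and S phase had negative changes too, of smaller size. Of 31 measured of 38 listed, 19 were called lower and 0 higher, with a median change of -0.69 and a median hemisphere effect of 0.68 on day 3 and -0.01 on day 14. Without an array or an animal the count was 13 to 20. The list's mean signal was 6.55 to 6.73 in ipsilateral day-3 arrays, 5.80 to 6.02 in contralateral ones, and 5.43 to 5.56 in all day-14 arrays, which overlap sham (5.43 to 5.45). Rrm2, the inducible subunit of the enzyme that makes deoxynucleotides, led it. It read 8.98, 8.74 and 9.13 ipsilaterally and 6.46, 5.86 and 6.61 contralaterally on day 3, and 5.57, 4.61 and 4.56 ipsilaterally and 4.73, 4.63 and 4.45 contralaterally on day 14 (probe set 10810144). All day-3 arrays lay above all day-14 arrays, and only on day 3 were the hemispheres apart. Its change was -2.33 ± 0.26 (limma adjusted p = 6.1e-07). Gins1, part of the replicative helicase, changed by -1.62 ± 0.21, Ccne1, the cyclin of S-phase entry, by -1.14 ± 0.18, and Cdc45, another part of that helicase, by -1.06 ± 0.18. Pcna (-0.01) and Tk1 (0.01), both classical S-phase genes, were not called and had no ipsilateral excess on day 3 (-0.18 and -0.21).

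Promoters of 6 genes are shown so that motifs known from genes of these pathways can be seen beside the values. The sequences are from RefSeq (GRCr8), 150 bases before to 30 bases after the annotated start of each gene, 5' to 3' on the gene's strand, in lower case with motif matches in capitals. The genes were chosen after their values were seen. The first 4 are mitotic genes, searched for the cell-cycle homology region (TTTGAA) and the CCAAT box (CCAAT); Gins1 was searched for an E2F site (TTTNGCGC) and Irf7, an interferon gene treated further on, for an interferon-stimulated response element (GAAANNGAA), each on both strands.
Ccnb1, chr2:33655196-33655375 (- strand): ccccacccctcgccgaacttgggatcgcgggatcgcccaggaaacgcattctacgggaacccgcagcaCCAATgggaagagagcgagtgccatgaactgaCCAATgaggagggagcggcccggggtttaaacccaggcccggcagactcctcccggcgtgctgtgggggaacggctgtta
Plk1, chr1:186147508-186147687 (+ strand): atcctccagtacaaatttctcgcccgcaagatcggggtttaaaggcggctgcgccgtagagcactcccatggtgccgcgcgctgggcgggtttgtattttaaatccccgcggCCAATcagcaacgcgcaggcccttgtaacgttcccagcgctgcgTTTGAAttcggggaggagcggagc
Cdk1, chr20:19265143-19265322 (+ strand): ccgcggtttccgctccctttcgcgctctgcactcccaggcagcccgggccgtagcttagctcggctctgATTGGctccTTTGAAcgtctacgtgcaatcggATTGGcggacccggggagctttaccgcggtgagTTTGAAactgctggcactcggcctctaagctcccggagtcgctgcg
Ect2, chr2:111966597-111966776 (- strand): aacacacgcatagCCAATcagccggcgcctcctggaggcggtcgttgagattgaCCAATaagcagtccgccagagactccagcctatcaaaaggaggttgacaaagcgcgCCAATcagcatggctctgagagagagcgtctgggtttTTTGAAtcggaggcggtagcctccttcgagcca
Gins1, chr3:160184770-160184949 (+ strand): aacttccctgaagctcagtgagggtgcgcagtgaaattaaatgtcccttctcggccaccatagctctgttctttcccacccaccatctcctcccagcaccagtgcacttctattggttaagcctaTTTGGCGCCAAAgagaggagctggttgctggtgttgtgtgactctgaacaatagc
Irf7, chr1:205799994-205800173 (- strand): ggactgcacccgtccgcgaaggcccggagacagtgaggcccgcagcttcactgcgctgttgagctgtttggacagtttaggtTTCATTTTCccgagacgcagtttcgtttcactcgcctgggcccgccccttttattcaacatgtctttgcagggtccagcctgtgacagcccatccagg
Within these windows Ccnb1 holds 2 CCAAT boxes and no TTTGAA, Plk1 1 of each, Cdk1 2 of each, and Ect2 1 TTTGAA and 3 CCAAT boxes, with no base shared between the motifs. The E2F matches in Gins1 are 2, on opposite strands and overlapping, and Irf7 holds 1 match. Plk1, the mitotic polo kinase, and Cdk1, the mitotic cyclin-dependent kinase, changed by -1.57 ± 0.19 and -1.51 ± 0.23.

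Over the mitosis, replication and interferon lists, matches were more frequent than over promoters at large, unlike over the sterol synthesis list. In the full window of 250 bases before to 50 after the start, TTTGAA was found in 17 of the 26 mitosis genes with a promoter in the table (65.4%) and in 12.4% of 9672 tested genes with one. CCAAT was found in 19 of the 26 (73.1%) and in 37.7% of tested genes. The E2F letters were found in 11 of 27 replication genes (40.7%) and in 2.02% of tested genes, and GAAANNGAA in 21 of 30 interferon genes (70.0%) and in 7.48%. Over all 27457 promoters in the table the shares were 18.1%, 37.7%, 1.37% and 9.50%. Among called members with a promoter, TTTGAA was in 16 and CCAAT in 18 of 24 mitosis genes. The E2F letters were in 6 of 17 called replication genes, and GAAANNGAA in 1 of 3 called interferon genes, namely Irf7. A sterol regulatory element (TCACNCCAC) was in 0 of 16 sterol synthesis genes and in 1.21% of tested genes. Such matches are letters in a window, and are described without a test.

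Markers of infiltrating monocytes and macrophages were mostly lower in the change, and a minority passed the test. Of 18 measured of 21 listed, 6 were called lower and 1 higher, with a median change of -0.80 and a median hemisphere effect of 0.83 on day 3 and 0.16 on day 14. The 12 stroke arrays fitted alone called 10 lower, both without and with the animal as a fixed block (each fixed-block fit named here used those 12 arrays alone). The mean signal of the list was 7.18 to 7.48 in ipsilateral day-3 arrays, 6.24 to 6.66 in ipsilateral day-14 arrays, and 6.03 to 6.14 in contralateral arrays of both days, so that a difference between hemispheres was still visible on day 14. The highest of the ipsilateral day-14 arrays was that of animal 1, and without both arrays of that animal the median change was -0.93. Gda, a purine deaminase, led the list. It read 7.76, 7.43 and 8.08 ipsilaterally and 4.51, 4.11 and 4.20 contralaterally on day 3, and 5.76, 4.73 and 4.89 ipsilaterally and 4.50, 4.26 and 4.11 contralaterally on day 14 (probe set 10729314). Ipsilateral arrays exceeded contralateral ones on both days without overlap, by far more on day 3, and the change was -2.64 ± 0.35 (limma adjusted p = 5.84e-06).

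Plac8, a cysteine-rich protein of monocytes and other leukocytes, crossed over between the days. It read 9.58, 9.63 and 9.75 ipsilaterally against 9.34, 8.57 and 9.34 contralaterally on day 3, and 7.87, 7.57 and 8.002 against 8.99, 8.82 and 8.95 on day 14 (probe set 10771406). It was thus higher on the lesion side on day 3 and lower on day 14, with no overlap on either day, and changed by -1.67 ± 0.26 (6.76e-05). Cd44, a hyaluronan receptor of activated leukocytes, kept an ipsilateral excess on both days (2.46 and 0.82) and changed by -1.64 ± 0.31 (0.00108). S100a4 (-1.31 ± 0.24), a calcium-binding protein of motile cells, S100a6 (-1.48 ± 0.40), a related protein, and Anxa2 (-1.22 ± 0.32), a membrane-binding annexin, were the other called members. The call of S100a6 was lost under 13 of 30 alternatives (adjusted p up to 0.14), quantile normalization among them. Ccr2, the chemokine receptor that defines inflammatory monocytes, was not called (-0.39), nor was Vim (-0.77), an intermediate filament. F10, the gene of coagulation factor X, was the single member called higher, at 0.96 ± 0.18.

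For border-associated macrophages, the macrophages of meninges and vessels, the called genes were Lyve1, Cd163 and Folr2. Of 9 measured of 11 listed, 3 were called lower and 0 higher, with a median change of -0.996. The mean signal was 6.59 to 7.18 in ipsilateral day-3 arrays, 5.52 to 6.55 in ipsilateral day-14 arrays and 5.32 to 5.82 in contralateral ones. Cd163, a hemoglobin scavenger receptor, read 6.77, 6.29 and 7.01 ipsilaterally and 4.80, 4.35 and 4.22 contralaterally on day 3, and 5.14, 4.46 and 4.12 ipsilaterally and 4.83, 4.09 and 4.50 contralaterally on day 14 (probe set 10858626). The ipsilateral day-3 arrays stood alone and the other 3 groups overlapped, and the change was -2.13 ± 0.36 (limma adjusted p = 0.00027). Lyve1, a hyaluronan receptor, read 9.12, 8.48 and 9.24 ipsilaterally and 8.33, 8.04 and 8.15 contralaterally on day 3, and 7.47, 5.64 and 6.77 ipsilaterally and 8.10, 7.81 and 8.11 contralaterally on day 14 (probe set 10724895). Unlike Cd163 it ended below the contralateral hemisphere and below sham (7.78, 8.14 and 7.92), and it changed by -2.15 ± 0.39 (0.000675). Folr2, a folate receptor, was called at -1.16 ± 0.35 (adjusted p = 0.048), a call that was lost under 20 of 30 alternatives, with adjusted p-values up to 0.212. Mrc1 (-0.996 ± 0.485) and Pf4 (-0.08), a mannose receptor and a chemokine, were not called, and Siglec1 stood at 0.82. Without ipsilateral day-14 replicate 1 the list's median was -1.47 and 5 members were called lower, and without ipsilateral day-3 replicate 2 also 5; without day-3 animal 3 the median was -0.63 with 2 called.

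Neutrophil genes changed in 2 of 17 cases. S100a9, a subunit of calprotectin, read 8.89, 9.10 and 9.20 ipsilaterally and 7.62, 8.01 and 7.76 contralaterally on day 3, and 7.69, 6.53 and 6.93 ipsilaterally and 9.38, 8.08 and 8.52 contralaterally on day 14 (probe set 10824695). The lesion side read higher on day 3 and lower on day 14. By limma the hemisphere effect of S100a9 was not called on day 3 (1.26, adjusted p = 0.0692) and was called lower on day 14 (-1.61, 0.0297). The change was -2.87 ± 0.74 with a limma adjusted p of 0.0159, and that of its partner S100a8 was -2.56 ± 0.73 (0.0324). Both are abundant in neutrophils and also made by monocytes. Their calls were lost under 7 and 15 of 30 alternatives, with adjusted p-values up to 0.0736 and 0.129, among them the fits without contralateral day-14 replicate 1 (0.0568 and 0.0942) and without ipsilateral day-14 replicate 2 (0.0591 and 0.12). None of the other 15 neutrophil markers was called, among them Cxcr2 (-0.89), a chemokine receptor, Mmp9 (-0.52), a gelatinase, and Mpo (0.07), myeloperoxidase. The list's mean signal spanned 5.49 to 5.73 in ipsilateral day-3 arrays and 5.11 to 5.57 in the other 3 groups. Cxcr2 and Mmp8, a collagenase, were dim in all of those 3 groups. The 12 arrays fitted alone called 3 members lower, and 6 with the animal as a fixed block.

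**Figure D2:**
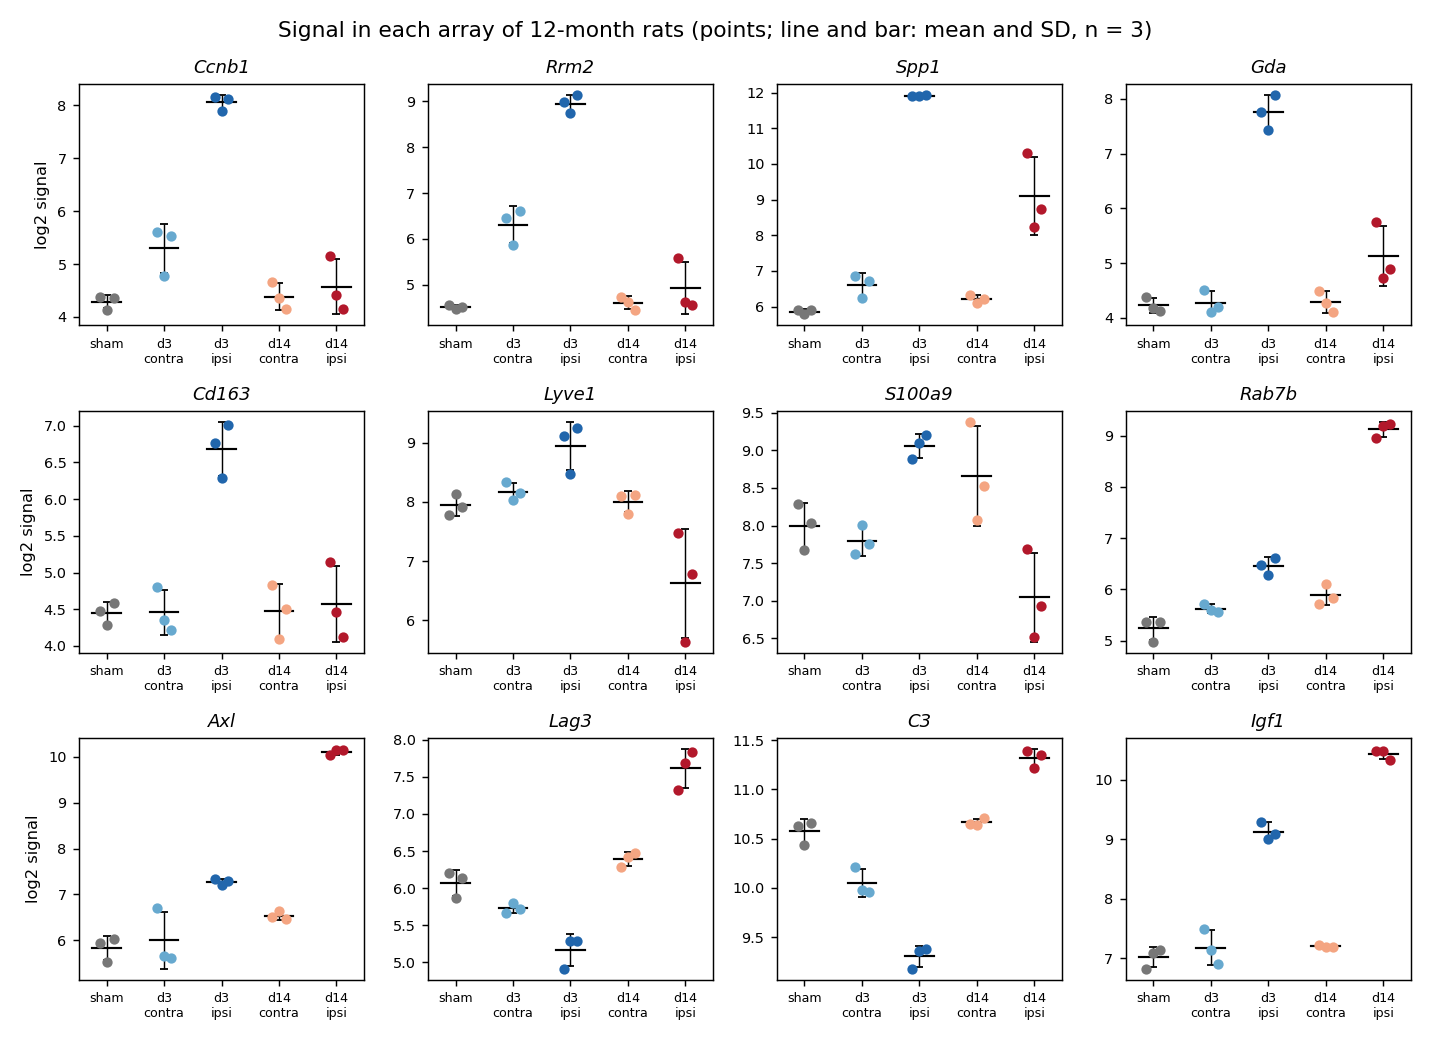
The log2 signal of 12 genes is plotted in every array of 12-month-old rats (points), with the mean and SD of each group (line and bar, n = 3), for sham and for the contralateral and ipsilateral hemispheres on days 3 and 14. Ccnb1, Rrm2, Gda and Cd163 are highest in the ipsilateral day-3 arrays, and Rab7b, Axl, Lag3, C3 and Igf1 in the ipsilateral day-14 arrays.

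Spp1, which encodes the secreted phosphoprotein osteopontin, had the largest hemisphere effect on day 3 among the genes named here and lost about as much as Ccnb1. It read 11.91, 11.90 and 11.95 ipsilaterally and 6.87, 6.24 and 6.72 contralaterally on day 3, and 10.32, 8.24 and 8.75 ipsilaterally and 6.32, 6.09 and 6.22 contralaterally on day 14 (probe set 10940654). The ipsilateral arrays remained above the contralateral ones on day 14, and animal 1 kept the highest of these signals. The hemisphere effect went from 5.31 to 2.89, a change of -2.42 ± 0.39 (limma adjusted p = 0.000149), and the change was -3.03 without ipsilateral day-14 replicate 1. Timp1, an inhibitor of matrix proteases, likewise stayed in ipsilateral excess (3.21 and 2.02) and changed by -1.19 ± 0.22 (0.000597). Slpi, a protease inhibitor of leukocytes, changed by -2.34 ± 0.53 (0.00561), a call lost without day-3 animal 1 (adjusted p = 0.0539) or 3 (0.0514). The largest negative change of a called gene was that of S100a11, a calcium-binding protein, at -3.07 ± 0.82 (0.0229). Its ipsilateral day-14 arrays ranged from 6.34 to 8.86, the mean of its probe sets gave -1.75, and the call was lost under 11 of 30 alternatives (adjusted p up to 0.109).

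Genes of disease-associated microglia, the state that microglia take around damage, split. Of 30 measured of 34 listed, 8 were called higher and 2 lower, with a median change of 0.16 and median hemisphere effects of 0.52 on day 3 and 0.89 on day 14. The mean signal was 9.15 to 9.28 in ipsilateral day-3 arrays and 9.30 to 9.63 in ipsilateral day-14 arrays, with contralateral arrays at 8.004 to 8.211 on both days. Several of the strongest ipsilateral genes of both days showed no called change: Gpnmb, a membrane glycoprotein of phagocytes, went from 3.54 to 3.08 (adjusted p of the change = 0.511). Lgals3, galectin-3, went from 3.69 to 3.18 (0.475), and Clec7a, a receptor for beta-glucans, from 3.07 to 3.28. The members called lower were Spp1 and the fatty-acid carrier Fabp5 (-0.84 ± 0.23), the latter lost under 13 of 30 alternatives with adjusted p-values up to 0.143. Without ipsilateral day-14 replicate 1 the lower count was 4.

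Axl, a TAM-family receptor kinase for the bridging ligand Gas6, rose most in that list. It read 7.34, 7.21 and 7.29 ipsilaterally and 6.71, 5.66 and 5.62 contralaterally on day 3, and 10.04, 10.15 and 10.15 ipsilaterally and 6.50, 6.63 and 6.45 contralaterally on day 14 (probe set 10719900). The ipsilateral day-14 arrays lay above all others by a wide margin, and contralateral arrays of the days overlapped. The change was 2.30 ± 0.26 (limma adjusted p = 5.19e-07). Lag3, an inhibitory receptor that binds MHC class II, changed sign. It read 4.91, 5.29 and 5.29 ipsilaterally and 5.67, 5.79 and 5.72 contralaterally on day 3, and 7.33, 7.68 and 7.83 ipsilaterally and 6.28, 6.42 and 6.48 contralaterally on day 14 (probe set 10865597). The ipsilateral side was below the contralateral one on day 3 and above it on day 14, with no overlap on either day, and the change was 1.78 ± 0.20 (6.1e-07). Igf1, the insulin-like growth factor, was already in excess on day 3 at 9.29, 8.995 and 9.09 against 7.49, 7.14 and 6.90, and reached 10.48, 10.48 and 10.32 against 7.22, 7.18 and 7.19 on day 14. Its change was 1.27 ± 0.18 (2.27e-05). Csf1, the growth factor of the macrophage lineage, changed by 1.17 ± 0.23 (0.00185), Cadm1, an adhesion molecule, by 0.87 ± 0.17, and Apoe, the lipid carrier apolipoprotein E, by 0.69 ± 0.12. Cd68, a lysosomal glycoprotein of phagocytes, and Cd9, a tetraspanin, rose by 0.57 ± 0.16 and 0.56 ± 0.12.

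Among lysosomal and phagocytosis genes the called changes were all positive. Of 35 measured of 40 listed, 9 were called higher and 0 lower, with a median change of 0.15 and median hemisphere effects of 0.18 on day 3 and 0.36 on day 14. The mean signal was 9.60 to 9.67 in ipsilateral day-3 arrays and 9.85 to 9.94 in ipsilateral day-14 arrays, without overlap, and 9.35 to 9.48 contralaterally on both days. Rab7b, a GTPase of late endosomes, had the largest positive change of the genes named here, and was called under each of the 30 alternatives. It read 6.48, 6.28 and 6.61 ipsilaterally and 5.71, 5.60 and 5.56 contralaterally on day 3, and 8.96, 9.18 and 9.24 ipsilaterally and 5.73, 6.11 and 5.84 contralaterally on day 14 (probe set 10763820). The ipsilateral day-14 arrays lay far above the other 3 groups, and the change was 2.40 ± 0.23 (limma adjusted p = 7.19e-08). Gaa, the lysosomal alpha-glucosidase that degrades glycogen, read 9.77, 9.86 and 9.85 in the ipsilateral day-14 arrays and 8.61 to 8.91 in the other 9 stroke arrays, and changed by 1.06 ± 0.12 (3.72e-07). Hexa, a hexosaminidase subunit, rose by 0.61 ± 0.14 (0.00904), Man2b1, a lysosomal mannosidase, by 0.48 ± 0.11, and Tfeb, a transcription factor of lysosomal genes, by 0.50 ± 0.14. Gas6, that bridging ligand, rose by 0.49 ± 0.13, whereas the related receptor Mertk (0.14) and the ligand Pros1 (-0.01) were not called. No cathepsin of the list was called. The count was 5 without ipsilateral day-3 replicate 1 or contralateral day-14 replicate 1, 5 without day-3 animal 1 or 3 or day-14 animal 1, and 4 without day-14 animal 3.

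Among lipid carriers and sterol exporters, called changes went both ways. Of 19 measured of 21 listed, 5 were called higher and 3 lower. Abca1, the cholesterol exporter, went from a hemisphere effect of 1.15 to 1.96, a change of 0.81 ± 0.12 (2.95e-05), and Abcg1, a second exporter, changed by 0.75 (limma adjusted p = 0.000351). Npc2, a lysosomal cholesterol carrier, and the fatty-acid carrier Fabp3 rose by 0.36 and 0.83, and the call of Fabp3 was lost under 14 of 30 alternatives (adjusted p up to 0.153). Fabp4, a fatty-acid carrier of macrophages and fat cells, read 6.98, 6.93 and 7.71 ipsilaterally on day 3 and 5.33, 5.25 and 4.60 on day 14, with all contralateral arrays at 3.42 to 3.86, at or below the 30th percentile (probe set 10814286). Its change was -2.07 ± 0.40 (0.00122), and -2.18 with values raised to that percentile. Plin2, a coat protein of lipid droplets, and Fabp5 fell by 0.69 and 0.84. The higher count was 3 without ipsilateral day-3 replicate 3, contralateral day-14 replicate 1, ipsilateral day-14 replicate 2 or 3, or any 1 animal. The lower count was 1 after quantile normalization, without contralateral day-3 replicate 2, ipsilateral day-3 replicate 1 or 3, contralateral day-14 replicate 1 or 2, ipsilateral day-14 replicate 3, or any animal but day-14 animal 1.

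In the hemisphere effect, genes of sterol synthesis were called lower on the lesion side or not at all. None of the 20 measured genes was called higher in the ipsilateral hemisphere on either day. There 6 were called lower on day 3 and 10 on day 14, and 2 were called lower in the change. From day 3 to day 14 the list moved mainly in the contralateral hemisphere. Its median day effect there was 0.27, with 5 members called higher (16 of all 11675 genes). Ipsilaterally the median was 0.002, with 2 called higher and 1 lower. The list's mean signal on days 3 and 14 was 6.83 and 7.14 contralaterally and 6.59 and 6.61 ipsilaterally, with sham at 7.09. Sqle, squalene epoxidase, read 6.13, 6.04 and 5.97 ipsilaterally and 6.04, 6.35 and 5.86 contralaterally on day 3, and 5.14, 5.12 and 5.45 ipsilaterally and 6.43, 6.63 and 6.71 contralaterally on day 14 (probe set 10896772). The hemispheres overlapped on day 3 and stood apart on day 14, where the ipsilateral arrays lay lower and the contralateral ones higher than on day 3. The change was -1.31 ± 0.25 (limma adjusted p = 0.00107). Sc5d, a late desaturase of the pathway, changed by -0.81 ± 0.18 (0.00497). The 12 arrays fitted alone called 5 members lower, and also 5 with the animal as a fixed block.

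The called complement genes went in both directions. Of 13 measured of 23 listed, 2 were called higher and 2 lower, and 9 were not called, with a median change of -0.02. C3, the central component, read 9.18, 9.36 and 9.38 ipsilaterally and 10.22, 9.98 and 9.96 contralaterally on day 3, and 11.39, 11.21 and 11.35 ipsilaterally and 10.65, 10.64 and 10.71 contralaterally on day 14 (probe set 10931717). It was lower on the lesion side on day 3 and higher on day 14 with no overlap, and sham (10.63, 10.43 and 10.66) lay near the contralateral day-14 arrays. The change was 1.40 ± 0.14 (limma adjusted p = 7.27e-08). Cfd, factor D, which activates the alternative pathway, changed by 1.26 ± 0.34 (0.0241), a call lost under 10 of 30 alternatives (adjusted p up to 0.0956). Cfp, properdin, which stabilises that pathway's convertase, changed by -0.92 ± 0.24 (0.0153), and C5ar1, the receptor of C5a, by -0.85 ± 0.21 (0.0105). Each of these 2 calls was lost without ipsilateral day-14 replicate 2 (adjusted p = 0.0784 and 0.0522), day-3 animal 3 (0.104 and 0.0647) and day-14 animal 2 (0.1 and 0.115) or 3 (0.067 and 0.0717).

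Type I interferon-stimulated genes rose in 5 of 40 measured cases and fell in 0, with a median change of 0.13. Hemisphere effects called higher numbered 10 of the 40 on day 3 and 19 on day 14. Over all genes tested, 18.7% were called higher on day 3 and 10.9% on day 14. Irf7, the transcription factor that amplifies the interferon response, read 5.48, 5.86 and 5.27 ipsilaterally and 5.48, 5.45 and 5.36 contralaterally on day 3, and 7.01, 6.60 and 6.88 ipsilaterally and 5.69, 5.56 and 5.58 contralaterally on day 14 (probe set 10726758). It was elevated in the ipsilateral day-14 arrays alone, and changed by 1.11 ± 0.20 (limma adjusted p = 0.000551). Mx1, an antiviral GTPase, was in ipsilateral excess on both days (1.10 and 2.19) and changed by 1.10 ± 0.29 (0.0212), a call lost under 9 of 30 alternatives (adjusted p up to 0.141). Herc6, Zbp1 and Oas2, a ubiquitin ligase, a nucleic-acid sensor and an RNA sensor, rose by 0.68, 0.62 and 0.48. The calls of Herc6 and Zbp1 were lost under 11 and 17 of 30 alternatives (adjusted p up to 0.243 and 0.215), quantile normalization among them for both. Isg15 (0.22), Ifit1 (0.26) and Rsad2 (0.03), commonly used as interferon response genes, were not called. With any 1 array or animal left out the list's higher count was 1 to 4, with the lowest without contralateral day-3 replicate 1, ipsilateral day-14 replicate 3, day-3 animal 1 or day-14 animal 3, and it was 2 after quantile normalization.

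Cytokines, chemokines and related genes gave 4 higher and 1 lower of 36 measured. Cxcl13, a chemokine that attracts B cells, read 5.49, 5.28 and 6.44 ipsilaterally and 6.16, 4.76 and 5.09 contralaterally on day 3, with overlap, and 6.79, 7.14 and 6.88 ipsilaterally and 4.73, 4.44 and 4.97 contralaterally on day 14, with none (probe set 10775731). The change was 1.83 ± 0.37 (limma adjusted p = 0.00217). Osm, the cytokine oncostatin M, changed by 0.99 ± 0.21 (0.00369), Cxcl16, a membrane-bound chemokine, by 0.63 (0.00564), and Csf1 is given above. Socs3, a feedback inhibitor of cytokine signalling, changed by -0.86 ± 0.19 (0.00497), a call lost without day-3 animal 1 (0.0582) or 3 (0.0507) or day-14 animal 2 (0.053). Il6 was lower on the lesion side on both days to a like degree (-2.01 and -2.17), and its change of -0.16 ± 0.27 was not called. The 12 arrays fitted alone called 6 members higher and 2 lower, and 7 and 2 with the animal as a fixed block.

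Further positive changes belonged to genes outside the lists. Coro6, a coronin of the actin cytoskeleton, read 9.24, 9.59 and 9.59 in the ipsilateral day-14 arrays and 7.49 to 7.96 in the other 9 stroke arrays, and changed by 1.65 ± 0.16 (limma adjusted p = 5.97e-08). Fyn, a Src-family kinase, read 7.22, 7.23 and 7.30 there and 5.23 to 5.61 elsewhere, and changed by 1.60 ± 0.26 (0.000166). Cd22, an inhibitory receptor that binds sialic acid, went from 0.12 to 1.60, and Cd72, an inhibitory C-type lectin, from -0.63 to 0.94. Aebp1, a secreted carboxypeptidase-like protein, also turned from lower to higher (-0.34 and 1.28). Ly6e, a membrane-anchored protein, and Eepd1, a nuclease-domain protein, changed by 1.47 ± 0.31 and 1.37 ± 0.16. The call of Ly6e was lost without day-14 animal 3 (adjusted p = 0.0539).

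Markers of the resting state showed a hemisphere effect that did not differ detectably between the days. Of 26 measured homeostatic genes, 23 were called lower ipsilaterally on day 3 and 16 on day 14, with medians of -0.50 and -0.41. In the change 1 was called higher and 0 lower, with a median of 0.11. Tmem119, a surface protein of microglia, read 7.86, 8.03 and 7.82 ipsilaterally and 9.35, 9.31 and 9.15 contralaterally on day 3, and 7.97, 7.44 and 8.04 ipsilaterally and 9.05, 9.29 and 9.24 contralaterally on day 14 (probe set 10759177). The hemispheres were apart by about the same distance on both days, and the change was -0.01 ± 0.25 (limma adjusted p = 0.993). P2ry12, the purine receptor of resting microglia, changed by -0.10 ± 0.15 (0.827), and Cx3cr1, the fractalkine receptor, by -0.02 ± 0.12 (0.97). Sparc, a matricellular protein, was the member called higher, at 0.38 ± 0.10 (0.0245); its call was lost under 14 of 30 alternatives, among them the fit of the 12 arrays alone (adjusted p = 0.0724; 0.0874 with the animal as a fixed block), and its adjusted p reached 0.14.

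**Figure D3:**
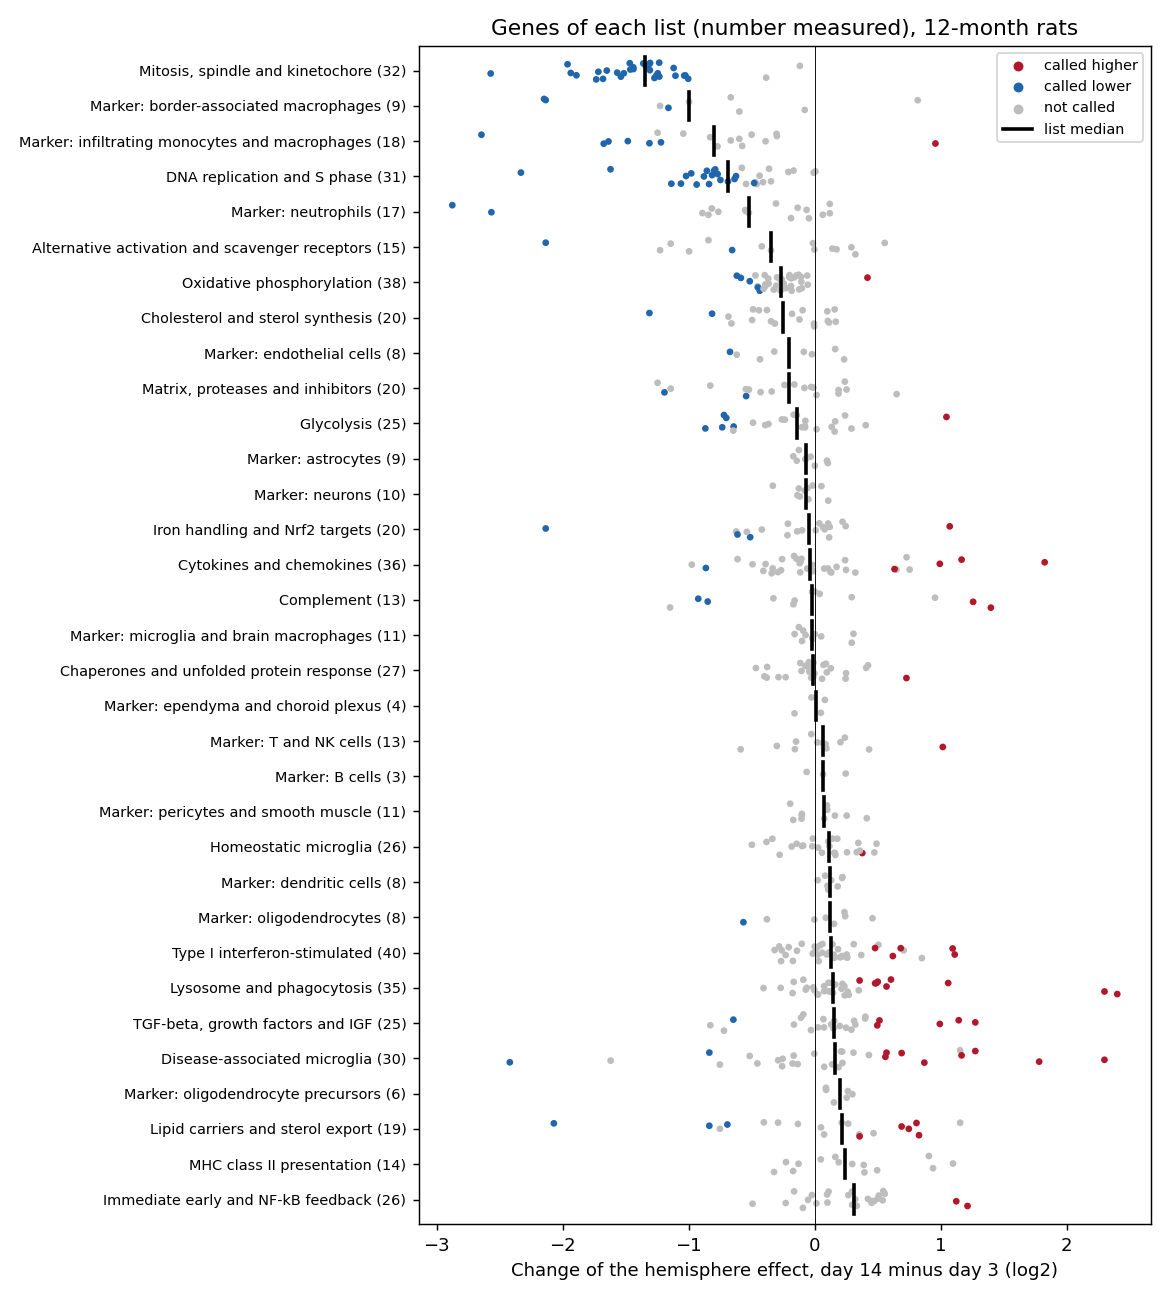
Each point is a gene of a list, with its change of the hemisphere effect (day 14 minus day 3, log2) on the horizontal axis, coloured by call, and a bar marks the list's median; the number of genes measured follows each list's name. All 32 genes of the mitosis list lie below 0 and 30 are called lower, and the border-associated macrophage, monocyte and replication lists follow in that order of median. Lists of neural and vascular cells have medians between -0.20 and 0.20.

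Genes of energy metabolism had small changes. Of 38 measured genes of oxidative phosphorylation, 36 were called higher ipsilaterally on day 3 and 26 on day 14, and the median effect went from 0.69 to 0.37. The median change was -0.27, with 37 of 38 below 0, 5 called lower and 1 higher (Ndufa1, 0.42, a subunit of complex I). The lower count was 0 without contralateral day-3 replicate 2, ipsilateral day-14 replicate 2, day-3 animal 2 or day-14 animal 2, was 2 after quantile normalization, and ranged from 0 to 7 over the 18 fits that left out an array or animal. Glycolysis genes gave 5 lower and 1 higher of 25. Pgk1, phosphoglycerate kinase, went from 1.11 to 0.24, a change of -0.87 ± 0.13 (limma adjusted p = 4.97e-05), and was called under each of the 30 alternatives. The other 4 lower members, Ldha, Tpi1, Hk3 and Pgam1, changed by -0.64 to -0.73. The calls of Ldha and Tpi1 were lost under 10 and 19 of 30 alternatives (limma adjusted p up to 0.118 and 0.17). The list's lower count ranged from 1 (for example without contralateral day-3 replicate 2, ipsilateral day-3 replicate 3 or ipsilateral day-14 replicate 2) to 6 when an array or animal was left out. Pdk4, the kinase that turns pyruvate away from oxidation, moved the other way. It read 8.40, 7.90 and 8.21 ipsilaterally and 5.14, 5.20 and 5.25 contralaterally on day 3, and 9.41, 9.17 and 9.71 ipsilaterally and 5.47, 5.28 and 5.45 contralaterally on day 14 (probe set 10860900). The hemispheres were far apart on both days, further on day 14, and the change was 1.05 ± 0.26 (0.0135). That call was lost without ipsilateral day-14 replicate 3 (adjusted p = 0.0535), day-3 animal 2 (0.0923) or 3 (0.055), or day-14 animal 3 (0.0831).

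Among transcription factors and growth factors, Nr4a2 and Nr4a3, orphan nuclear receptors of the immediate early class, changed by 1.21 ± 0.20 and 1.12 ± 0.21 (limma adjusted p = 0.000138 and 0.000974). Nr4a2 read 9.24, 9.20 and 8.98 in the ipsilateral day-14 arrays and 7.76 to 8.13 in the other 9 stroke arrays. They were the 2 of 26 immediate early and NF-kB feedback genes called higher, with 0 lower, and the median change of that list was 0.31; the animal as a random block gave 4, the 12 arrays fitted alone 6 without and 6 with the animal as a fixed block, quantile normalization 7, and leaving out contralateral day-3 replicate 1 or contralateral day-14 replicate 2 gave 4 each. Gdf15, a stress-induced cytokine, rose by 1.14 ± 0.21 (0.000729), and Gclc, the enzyme that limits glutathione synthesis, by 1.07 ± 0.19 (0.00045). Cd4, which rat macrophages and microglia express beside T cells, rose by 1.02 ± 0.18 (0.000553), while none of the other 12 measured genes of T and NK cells was called. Il4r, the interleukin-4 receptor, fell by 0.65 (0.0016), and with Cd163 it made up the 2 of 15 alternative activation genes called lower; the 12 arrays fitted alone called 5, and also 5 with the animal as a fixed block.

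**Figure D4:**
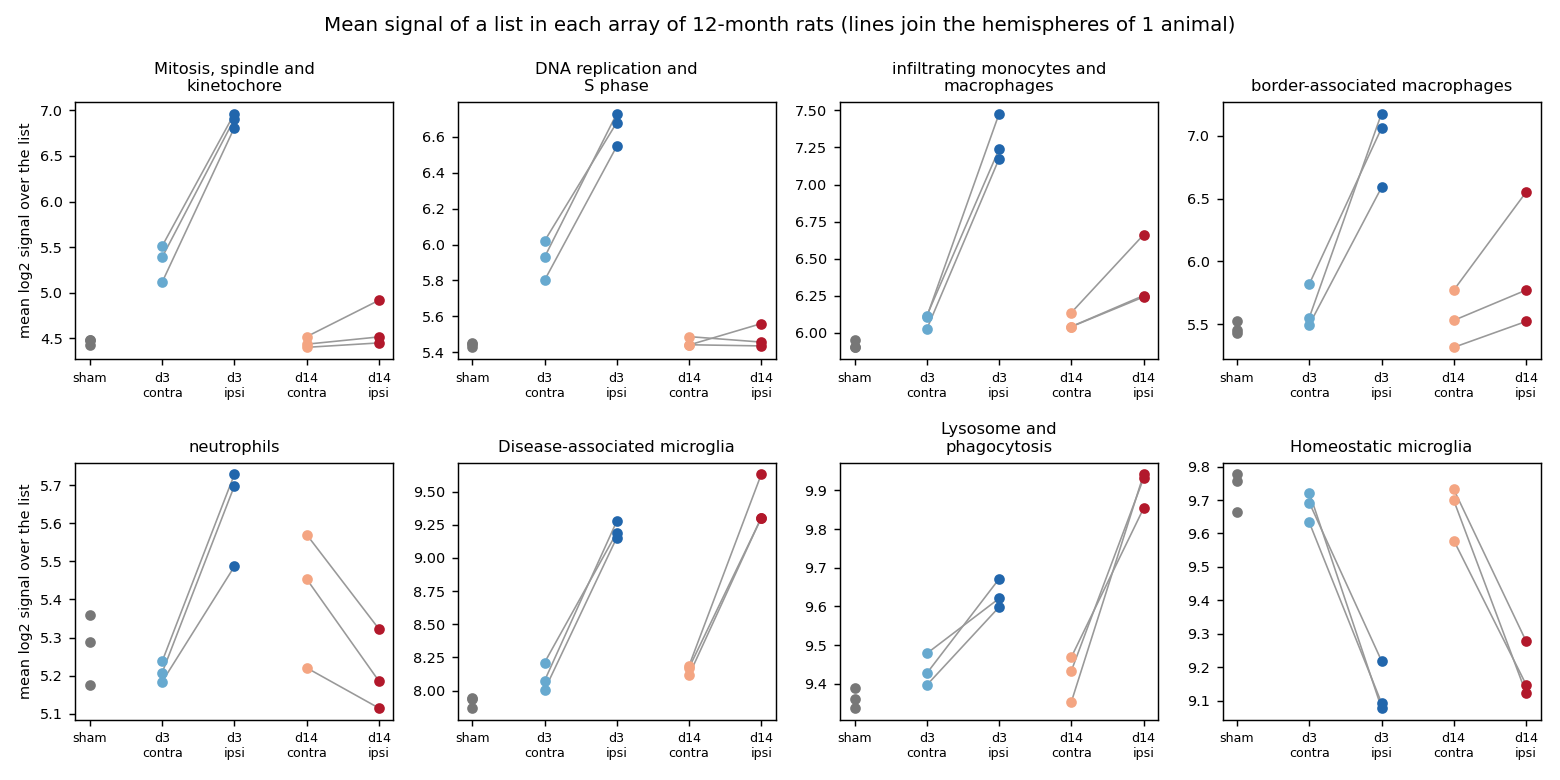
The mean log2 signal over the measured genes of 8 lists is plotted for each array of 12-month-old rats, with lines joining the contralateral and ipsilateral arrays of 1 animal. The lines for mitosis and replication are steep on day 3 and nearly flat on day 14, those of lysosomal genes are steeper on day 14, and those of homeostatic genes fall on both days.

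On the ipsilateral side, animal 1 of day 14 lay nearer to day 3 than its group mates did in several of these genes and lists. Its ipsilateral array read 10.32 for Spp1 against 8.24 and 8.75 in the other 2 of its group, 5.76 for Gda against 4.73 and 4.89, and 5.16 for Ccnb1 against 4.41 and 4.15. Its list means were the highest of the 3 ipsilateral day-14 arrays for mitosis (4.92), replication (5.56), monocytes (6.66), border-associated macrophages (6.55) and neutrophils (5.32). Its contralateral array was also the highest of 3 for mitosis (4.52), monocytes (6.14), border-associated macrophages (5.77) and neutrophils (5.57). The hemisphere difference of S100a9 was most negative in animal 1 (-1.69, against -1.55 and -1.59). For disease-associated microglia its ipsilateral array lay farther from day 3 (9.63, against 9.30 and 9.30). Without both arrays of animal 1, 433 genes were called lower and 141 higher, of which 492 were called with all arrays. The lower share was then 75.4%. The mitosis list then gave a median of -1.52, with 30 members called lower.

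In 3-month-old rats the same contrast pointed the same way for most of the genes, with more calls among the higher ones. There 300 genes were called higher (2.57%) and 145 lower (1.24%). Of the 419 genes lower at 12 months, 347 were also below 0 at 3 months, and of the 204 higher ones 187 were above 0. At both ages 79 genes were called higher and 71 lower, and 0 had opposite calls, which is 24.1% of the calls at 12 months and 33.7% of those at 3 months. Across the 11675 genes the changes correlated at r = 0.44; the ages share no array, and genes are not independent replicates. Arrays of 3-month-old stroke rats had a narrower spread of signals (SD 1.79 to 1.93) than those of 12-month-old stroke rats (1.94 to 2.05), a difference whose part in these comparisons was not tested.

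The ages differed by test in 15 genes (0.128%), 13 with a more negative and 2 with a more positive change at 12 months. Ect2 changed by -1.73 ± 0.13 at 12 months and by -0.61 ± 0.13 at 3 months, a difference of -1.12 ± 0.19 (limma adjusted p = 0.00847). Spc25, a kinetochore protein, changed by -1.68 and -0.12 (difference -1.56, adjusted p = 0.00847), and Nusap1, a spindle protein, by -1.47 and -0.28 (-1.18, 0.0215). Gins4, a helicase subunit, changed by -1.19 and 0.53 (-1.72, 0.017). The whole mitosis list had a median of -1.35 at 12 months with 30 of 32 called lower, and of -0.61 at 3 months with 18 called lower; 4 members differed between the ages by test. The replication list had medians of -0.69 and -0.18, with 19 and 1 called lower, and none of its members differed between the ages by test. The medians of the marker lists for border-associated macrophages, neutrophils and monocytes were more negative at 3 months, which was not tested. Not all marker lists went this way: microglia and brain macrophages stood at -0.02 and 0.15 at 12 and 3 months, and endothelial cells at -0.20 and -0.01. For border-associated macrophages the medians at 12 and 3 months were -0.996 and -1.36, with 3 and 5 called lower. For neutrophils they were -0.52 and -0.82 (2 and 4 called lower), and for monocytes -0.80 and -0.88 (6 and 7). No member of these marker lists differed between the ages by test. Of the 15 genes, the largest difference was that of Serping1, the C1 inhibitor, at 0.96 and 3.16 (-2.20 ± 0.42, limma adjusted p = 0.0215). Gdf15 and Nr4a3 were called higher at 12 months, stood at -0.40 and -0.34 at 3 months, and differed between the ages by 1.55 and 1.46.

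The number of genes that differ between the ages depended on single animals. It was 4 without contralateral day-3 replicate 2, 27 and 9 without ipsilateral day-3 replicates 2 and 3, 8 without contralateral day-14 replicate 3, and 43 and 8 without ipsilateral day-14 replicates 1 and 2. It was 6 and 9 without day-3 animals 1 and 2, and 43, 5 and 0 without day-14 animals 1, 2 and 3. With the animal as a random block it was 31.

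**Figure D5:**
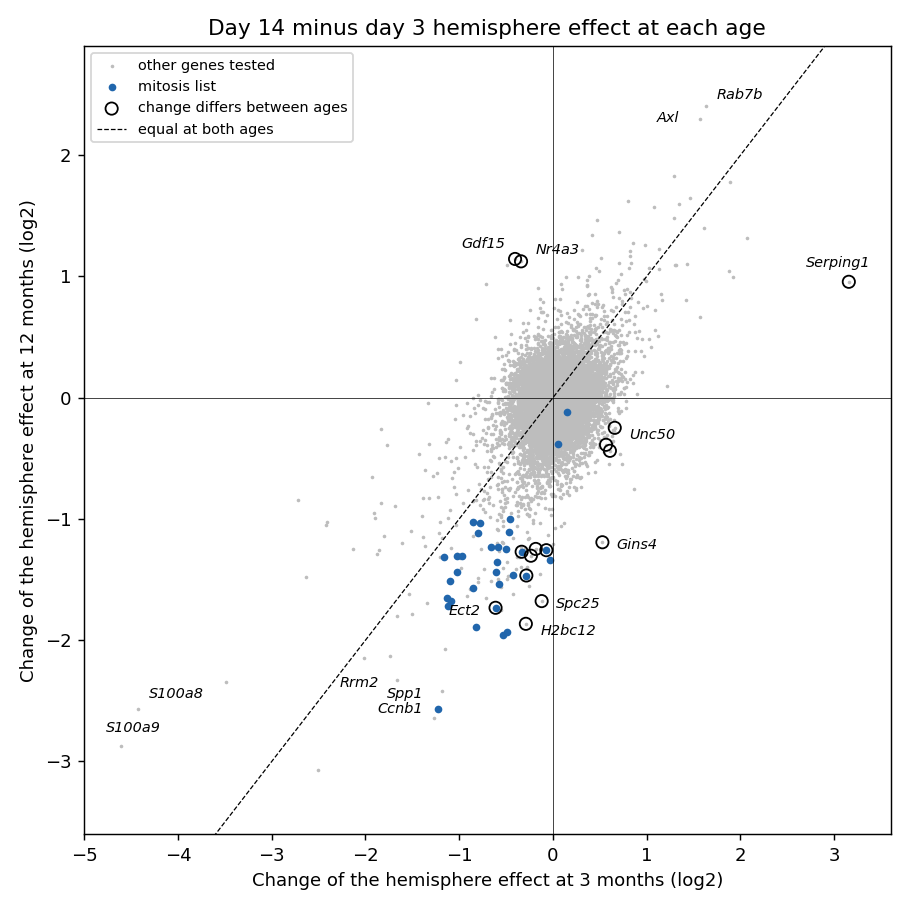
The change of the hemisphere effect (day 14 minus day 3, log2) at 3 months is plotted on the horizontal axis and at 12 months on the vertical axis for 11675 genes, with the mitosis list in blue and the 15 genes that differ between the ages circled. Most mitosis genes lie below the dashed line of equal changes, at about -1 to -2 at 12 months and nearer 0 at 3 months, while Serping1 lies far to the right.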

How the data were processed

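RNA of microglia, extracted with RIN above 7.0 and amplified from 50 ng per the labels' protocols, was measured on 30 Affymetrix arrays in 10 groups of 3. The deposited values are log2 signals that the authors made with Affymetrix Expression Console and RMA, per the submitters' processing notes; versions are not given in the sources used here. RMA shares one normalization over the arrays and compresses low signals. Of 29214 probe sets, 15310 carry 1 gene symbol in the platform annotation given here, 323 several and 13581 none, and those without a single symbol were not named. A probe set was kept if above its array's 30th percentile (4.07 to 4.35) on at least 3 arrays, and the one of the highest mean was taken per gene, which left 11675 genes. A gene was dim in a group if at or below that percentile on all 3 arrays.

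Group means were fitted with limma 3.58.1 in R 4.3.3 over all 30 arrays (20 residual and 8.80 prior degrees of freedom), with Benjamini-Hochberg adjustment over all genes and calls at an adjusted p under 0.05. The number of arrays limits precision; with 3 animals against 3 an exact permutation test of a single gene cannot go below 0.1. The scripts were tested on simulated data. Same-numbered hemispheres come from 1 animal by the sample codes; the correlations of their deviations from the group means were 0.05, 0.10 and 0.09 on day 3 and 0.15, -0.08 and 0.21 on day 14. No arrays were identical. The p-values measure the spread between these samples, since nothing states how animals were assigned or pooled. The members and gene lists were chosen with earlier results of these data known, and lists are described by counts and medians without a test.

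Genes were named by a rule: the 12 largest called changes in each direction with animals that do not overlap between the days, up to 4 called members of each list with the largest change, and 10 genes of common interest; other genes were named after their values were seen, as list members. In all, 30 alternatives were run: 18 leave out an array or animal, and 12 alter the arrays fitted, the block, the filter, the probe-set summary, the normalization or the variance model. Sequences are from RefSeq promoters of GRCr8.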

Additional observations from a re-analysis of the deposited data

Results flagged for a closer look

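The change of the hemisphere effect differed between 12- and 3-month-old rats by limma's test of the difference itself for 15 genes, and each difference is 12 months minus 3 months on the log2 scale. Those of cell division were Spc25 (-1.56), Ect2 (-1.12), Nusap1 (-1.18), Melk (-1.19), Kif20b (-0.94), Cenpi (-1.07) and Gins4 (-1.72). Cenpi is a kinetochore protein, Kif20b a kinesin of cytokinesis and Melk a kinase of dividing cells. Tcf19, a factor of the G1 to S transition, differed by -1.06, and H2bc12, a histone gene, by -1.58. Serping1 differed by -2.20; its change at 12 months of 0.96 was not called (adjusted p = 0.0531), and that at 3 months was 3.16. Unc50 (-0.91), Tmx2 (-1.05) and Casp8ap2 (-0.95) had uncalled changes of -0.25, -0.44 and -0.39 at 12 months and were called higher at 3 months (0.66, 0.61 and 0.57). Gdf15 (1.55) and Nr4a3 (1.46) were the genes with a more positive change at 12 months. The cause of these differences was not tested.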

How the results depend on the processing

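Of 74 named genes that were called, 42 stayed called under each of the 30 alternatives, 32 lost the call under at least 1 (13 of these only when arrays were left out), and none reversed. The counts (204 higher, 419 lower) were 226 and 468 with the animal as a random replicate block, which kept all 623 calls. The fixed replicate block was fitted on the 12 stroke arrays alone and gave 252 and 514, of which 564 were among the 623; the same 12 arrays without the block gave 223 and 452. Besides the changes given elsewhere, that blocked fit lost, among the named genes, the calls of Cox7a2 (adjusted p = 0.057) and Slc11a1 (0.0641), and called 0 genes of oxidative phosphorylation higher, 7 interferon genes higher, 8 lysosomal genes higher, 3 complement genes higher, 9 disease-associated genes higher and 3 lower, and 1 gene of border-associated macrophages higher and 4 lower. Array weights gave 292 and 622. Without an array or animal the higher count ranged from 103 to 195 and the lower from 218 to 454, and the number of genes that differ between the ages from 0 to 43 (15 with all arrays). That number was 31 with the random block, 29 with median-centred arrays, and 65 with values raised to the 30th percentile, an alternative chosen after seeing the data. Ranges without an array or animal were -1.52 to -1.25 for the mitosis median with 28 to 30 called lower, -0.82 to -0.59 for replication with 13 to 20, -1.03 to -0.66 for monocyte markers with 4 to 8, and -1.47 to -0.63 for border-associated macrophages with 2 to 5. The replication median was -0.57 after quantile normalization. Monocyte markers called lower numbered 10 with the 12 arrays alone, the 15 arrays alone and the fixed block. The causes were not tested. Dim signals limit the changes of mitotic genes on day 14.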

Other observations

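Several gene groups not described above had few called members. Of 14 measured genes of MHC class II presentation, 0 were called in the change by limma, with a median of 0.24; Cd74, the invariant chain, stood at 1.10 ± 0.61 (limma adjusted p = 0.402), and the 12 arrays fitted alone called 2 members higher, and 4 with the animal as a fixed block. Among 25 genes of TGF-beta, growth factor and IGF signalling, 5 were called higher (Smad3, Vegfb, Igf1, Gdf15 and Osm) and 1 lower (Pdgfc, lost under 9 of 30 alternatives, adjusted p up to 0.196); the higher count was 3 without day-3 animal 1 or day-14 animal 2. Iron handling and Nrf2 target genes gave 1 higher (Gclc) and 3 lower (Slc11a1, Cp and Cd163) of 20. The lower count was 1 without ipsilateral day-14 replicate 2, day-3 animal 1 or 2, or day-14 animal 2 or 3; the calls of Slc11a1 and Cp were lost under 9 and 6 of 30 alternatives (adjusted p up to 0.18 and 0.135). Chaperones and the unfolded protein response gave 1 higher (Asns) and 0 lower of 27, while 12 of them were called lower ipsilaterally on each day. The call of Asns was lost under 8 of the 29 alternatives that measured it (limma adjusted p up to 0.113). Of 20 matrix genes, 2 were called lower (Timp1 and Mmp2), 4 with the 12 arrays fitted alone, and 6 with the animal as a fixed block; the call of Mmp2 was lost under 17 of 30 alternatives (adjusted p up to 0.239).

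Lists for other cells had at most 1 called member in the change. Their median changes lay between -0.20 (endothelial cells) and 0.20 (oligodendrocyte precursors, with all 6 above 0). Of 8 measured endothelial genes, 4 were called higher and 1 lower ipsilaterally on day 3. In the ipsilateral hemisphere 3 of them were called lower from day 3 to day 14. In the change, Esam, a junction protein, was called lower among the endothelial genes. Cnp, a myelin enzyme, was called lower among 8 of oligodendrocytes. Their calls were lost under 7 and 14 of 30 alternatives (adjusted p up to 0.117 and 0.2), among them the fits without contralateral day-3 replicate 1 and without ipsilateral day-3 replicate 3 for both, and for Cnp also quantile normalization. None of the 8 dendritic cell, 3 B cell, 11 pericyte, 9 astrocyte, 6 oligodendrocyte precursor, 10 neuron or 4 ependyma genes was called in the change.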
